A study of Mus musculus with 12 samples.

Results

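The response of mouse embryonic stem cells (mESCs) to 4 days of retinoic acid was compared between cells with a knockdown of cathepsin L (shCTSL) and cells with a scramble shRNA (shSC). For each gene the measure is the Day 4 minus Day 0 change in shCTSL minus the same change in shSC, on the log2 scale, which is called here the line difference in response. It was fitted on the 8 libraries of these 4 groups, with 2 biological replicates per group, out of 12 libraries in the series. The other 4 are Day 2 libraries and did not enter the fit. A positive value means that a gene rose more, or fell less, in shCTSL.

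All groups are CCE-Nanog-GFP mESCs, a line with a GFP reporter of the pluripotency gene Nanog, which were grown with LIF and sorted for GFP+ cells before the experiments. The shSC Day 0 group (titled scr, genotype WT) and the shCTSL Day 0 group (titled KD, genotype CTSL KD) are undifferentiated cells. The Day 4 group of each line had been formed into embryoid bodies in the presence of all-trans retinoic acid and without LIF. The shRNAs came from lentiviral vectors, and the labels do not say which of the CTSL shRNAs the sequenced cells carried, so effects of the knockdown and of that line cannot be told apart. Embryoid bodies hold several cell types, and in such bulk RNA fewer cells of a type and less RNA per cell cannot be told apart.

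Cathepsin L is a cysteine protease of the lysosome that has also been found in the nucleus, where it can cut histone tails during differentiation. Retinoic acid binds nuclear receptors that switch on Hox genes and its own metabolism, and in mESCs it closes down the pluripotency network while endoderm, mesoderm and neural genes come on. Signals of the TGF-beta superfamily run alongside, with Nodal acting through its co-receptors and the Lefty proteins, which are secreted inhibitors of Nodal, limiting it.

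Polyadenylated RNA was sequenced, and the 8 libraries hold 11171111 to 21885578 counted reads over 24495 genes. Between the replicates of a group the SD of the log2 ratio was 0.193 to 0.246 for the 11222 genes with a mean log2 CPM over 2. Markers of each labelled state were present. The summed level of 5 pluripotency genes was 4180 to 4570 normalized CPM (CPM, counts scaled to the library total and its TMM factor) at Day 0 and 217 to 285 at Day 4 over both lines. The summed level of 6 retinoic acid response genes was 4.5 to 5.37 CPM at Day 0 and 1300 to 1380 at Day 4. Mesoderm and endothelial markers (5 genes) summed to 85.1 to 85.8 CPM in shSC and 60.2 to 65.5 in shCTSL at Day 0, and to 230 to 235 and 176 to 216 at Day 4. Trophoblast and blood markers stayed at or under 6.04 and 2.02 CPM in sum in all 8 libraries.

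Ctsl itself, the target of the knockdown (chromosome 13, 64464522 to 64471614 on mm9), was measured at 130.0 and 139 normalized CPM in shSC at Day 0 and at 37.6 and 35.4 in shCTSL. At Day 4 it stood at 462 and 409 CPM in shSC and at 249 and 245 in shCTSL. On each day all shCTSL libraries lay below all shSC libraries, and both lines rose between the days. The line difference in response was 1.06 ± 0.12 (SE) on the log2 scale (adjusted p = 0.00117), since Ctsl was lower in shCTSL by a log2 difference of -1.88 at Day 0 and of -0.82 at Day 4. The knockdown was thus smaller at Day 4 than at Day 0.

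Similar numbers of genes changed in both lines. In shSC 9600 of 15079 genes tested changed between Day 0 and Day 4 (63.7%), 5151 up and 4449 down, and in shCTSL 9449 did (62.7%), 5136 up and 4313 down. The line difference in response was called for 149 genes (0.988%), with 113 higher in shCTSL (0.749%) and 36 lower (0.239%). A gene was called at 1.5-fold or more with an adjusted p under 0.05. At an unadjusted p under 0.05 stood 2937 genes, and the smallest adjusted p was 0.000115. Over all genes tested the line difference had a median of 0.0118 with quartiles of -0.21 and 0.261. The shares called and the medians of the gene lists below are to be read beside the 0.988% and the 0.0118 of all genes tested. Among the 113 higher genes its median was 0.924 (range 0.592 to 3.12) and among the 36 lower genes -0.891 (range -3.08 to -0.594).

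**Figure D1:**
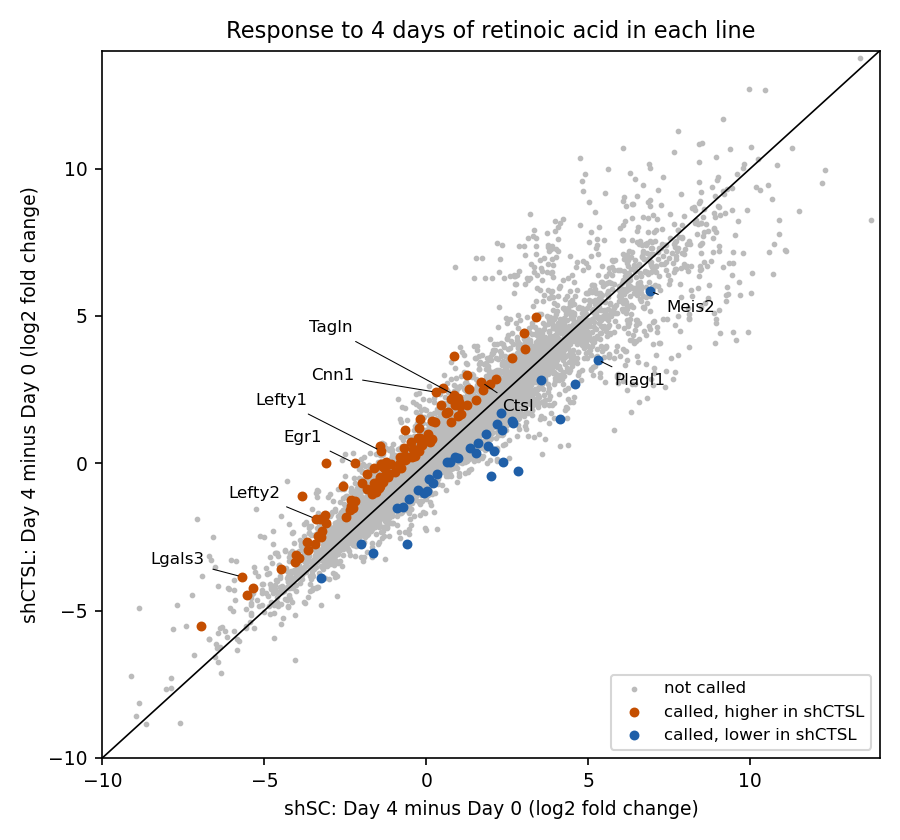
Day 4 minus Day 0 log2 fold change in shSC (horizontal) and in shCTSL (vertical) for the 15079 genes tested, each a point, with the line of equal response. The 113 genes called higher in shCTSL (orange) lie above that line and the 36 called lower (blue) below it, most of them close to it, with Lefty1, Egr1 and Lgals3 among those far above.

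The number of calls depends on single libraries. With shCTSL Day 0 replicate 2 left out it fell to 24, and with shCTSL Day 4 replicate 2 left out it fell to 20. Leaving out shSC Day 0 replicate 1 or 2 gave 15 or 8 calls, and leaving out shSC Day 4 replicate 1 gave 52. It rose to 498 when shCTSL Day 4 replicate 1 was left out and to 325 when shSC Day 4 replicate 2 was, and omitting shCTSL Day 0 replicate 1 gave 208. With all 12 libraries fitted, where the shCTSL Day 2 replicates differ by an SD of the log2 ratio of 0.645, only Lefty2 was called (adjusted p = 0.0447). Each of the naive, formative, retinoic acid, endoderm, neural, glycolysis and ribosomal protein lists described here had 0 calls when either shSC Day 0 replicate or shCTSL Day 4 replicate 2 was omitted. Of the 149 genes, 6 kept their call in each of the 8 fits with a library left out (Egr1, Lefty1, Lgals3, Lefty2, Rpl10l and Ctsl). A further 7 kept it in 7 of the 8 (Cnn1, Plagl1, Tagln, Smad7 and, named after their values were seen, Trh, Cltb and Adam19), and no called gene reversed under any setting tried.

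The split between higher and lower calls moved with the scaling and the tool. Of the calls 75.8% were higher in shCTSL, against 58.4% of 178 by DESeq2 and 61.1% of 499 with no filter on low counts. It also moved with gene length. The genes called higher had a median exonic length of 2273 bases and those called lower of 6322, against 3630 over all genes tested with a length. Genes were divided into 5 groups by exonic length. In the group of shortest genes the median line difference was 0.193, with 52 genes called higher and 1 lower, and in that of the longest genes it was -0.121, with 8 higher and 17 lower. After each library was corrected for its own trend with length by offsets, 213 genes were called, 62.4% of them higher, and 119 of the 149 remained called. Only genes with a length entered this fit, which were all 113 higher genes and 32 of the 36 lower genes. The part of RNA fragment length or RNA quality in this trend was not tested.

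**Figure D2:**
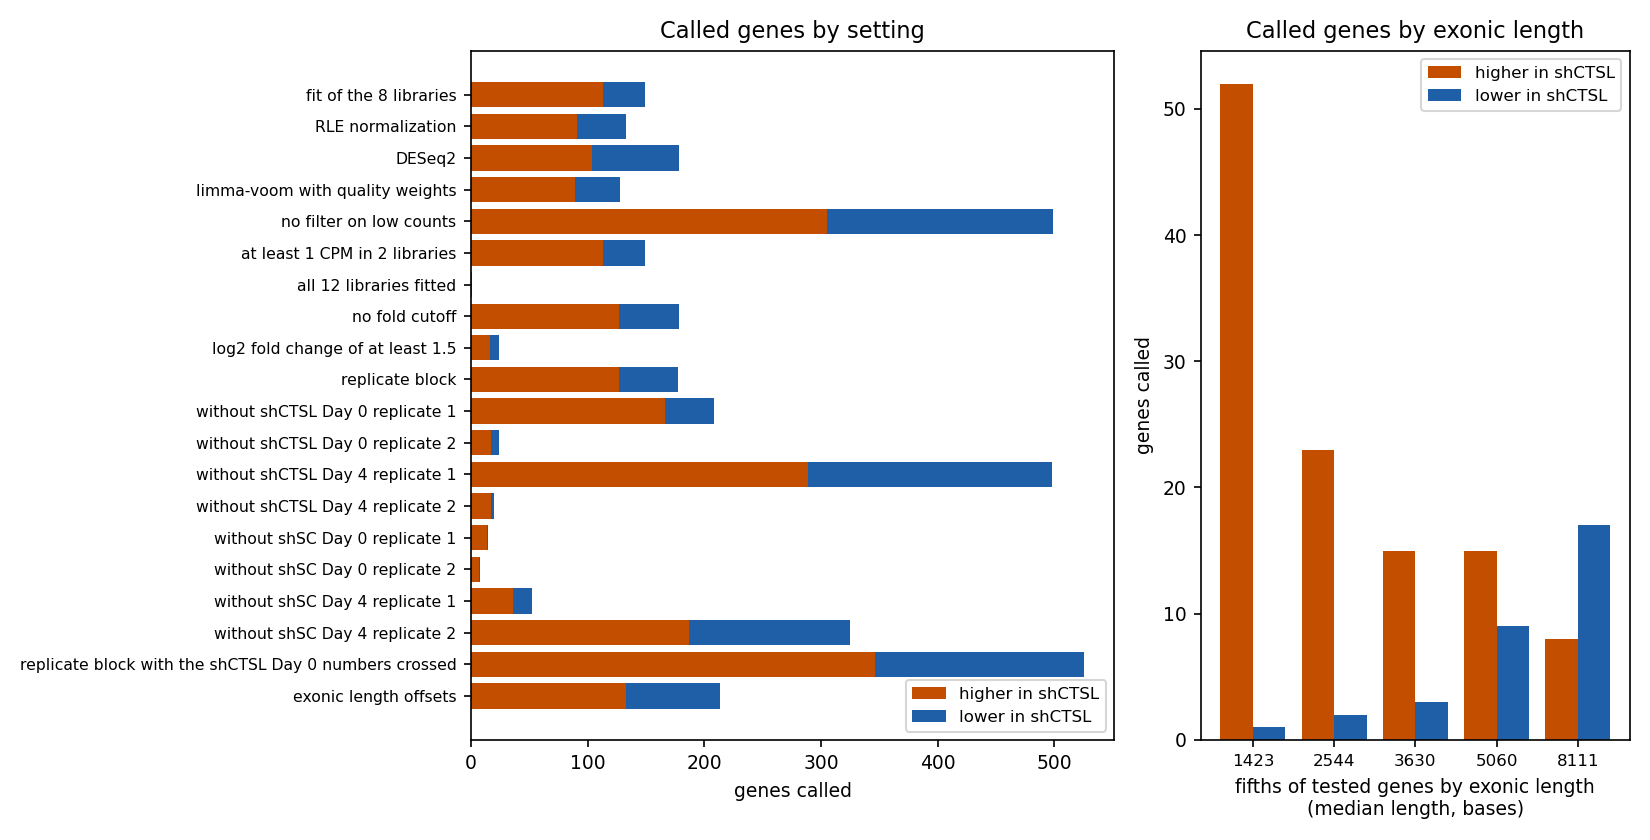
Left, number of genes with a called line difference in response under each setting, higher in shCTSL in orange and lower in blue, from 1 with all 12 libraries fitted to 525 with a crossed replicate block. Right, called genes in 5 groups of exonic length, from 52 higher and 1 lower among the shortest genes to 8 higher and 17 lower among the longest.

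The called genes fell into several kinds of response. Of the 113 higher genes, 39 fell in both lines but less in shCTSL, 25 fell in shSC with no call in shCTSL, and 1 fell in shSC and rose in shCTSL. Another 24 rose in both lines and more in shCTSL, and 17 rose in shCTSL with no call in shSC. Of the 36 lower genes, 13 rose in both lines but less in shCTSL and 10 rose in shSC with no call in shCTSL, while 5 fell in both and 6 fell in shCTSL with no call in shSC. For each of the 149 genes the 4 replicate differences of one line (each Day 4 library minus each Day 0 library) all lay beyond those of the other, as they did for 35.8% of all genes tested.

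A line difference in response can come from a gap between the lines before treatment, after it, or both. Of the 113 higher genes, 25 were at least 1.5-fold apart at Day 0 only, 49 at Day 4 only, 6 on both days on opposite sides, 1 on both days on the same side and 32 on neither day. The gene on the same side on both days is Ctsl, lower in shCTSL. Of the 36 lower genes, 3 were apart at Day 0 only, 16 at Day 4 only, 3 on both days on opposite sides and 14 on neither. Among all 15079 genes tested, 167 were called between the lines at Day 0 and 829 at Day 4. Those calls ask for an adjusted p under 0.05 beside the 1.5-fold. More gaps at Day 4 than at Day 0 are therefore not particular to the genes with a called line difference in response. The shCTSL minus shSC difference of the higher genes had a median of -0.353 at Day 0 and 0.546 at Day 4, and that of the lower genes of 0.301 and -0.611. The line difference in response is the Day 4 gap minus the Day 0 gap. Genes called for it therefore tend to have gaps of opposite sign. These medians, and the turned order of the lines described for single genes below, are in part set by that choice.

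**Figure D3:**
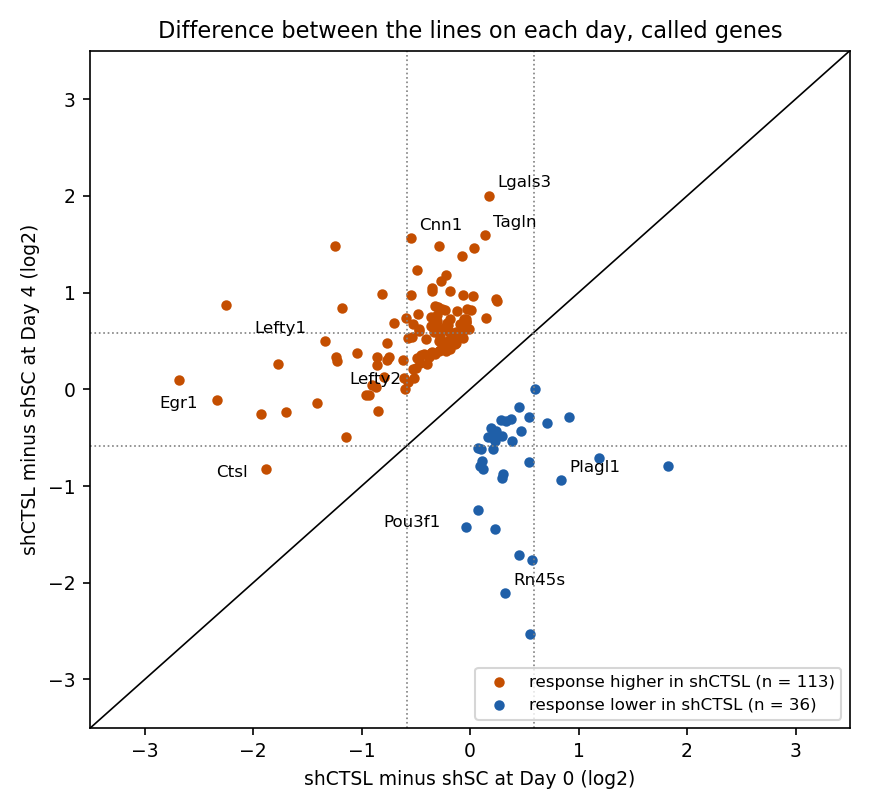
shCTSL minus shSC log2 difference at Day 0 (horizontal) and Day 4 (vertical) for the 149 called genes, with the line of equal difference and dotted lines at 1.5-fold. Egr1, Lefty1 and Lefty2 stood apart at Day 0 on the low side, whereas Tagln, Cnn1 and Lgals3 stood apart at Day 4 on the high side, and Pou3f1 and Rn45s at Day 4 on the low side.

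Both Lefty genes, feedback inhibitors of Nodal that mESCs express, had a higher response in shCTSL, and they were lower in shCTSL than in shSC before treatment. Lefty1 (chromosome 1, 182865153 to 182868531) stood at 62.0 and 68.7 CPM in shSC Day 0, 27.6 and 23.9 in shCTSL Day 0, 23.0 and 26.4 in shSC Day 4 and 32.5 and 36.8 in shCTSL Day 4. The shCTSL libraries lay below those of shSC at Day 0 and above them at Day 4, with no overlap on either day. Lefty1 fell in shSC (-1.41) and its change in shCTSL was 0.42, so that the line difference in response was 1.83 ± 0.16 (SE, adjusted p = 0.000123).

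Lefty2, its neighbour on chromosome 1 (182823239 to 182829234), stood at 145 and 155 CPM in shSC Day 0 against 64.9 and 62.7 in shCTSL. At Day 4 it stood at 14.4 and 13.7 CPM in shSC and at 16.9 and 17.5 in shCTSL. The order of the lines turned here too, without overlap, and the larger gap was that at Day 0. Lefty2 fell in both lines, by a log2 change of -3.41 in shSC and of -1.89 in shCTSL, with a line difference of 1.52 ± 0.12 (SE, adjusted p = 0.000115). These were the 2 called members among 17 primitive streak and mesoderm genes tested (11.8%), a list whose median line difference was 0.427. Both remained called in each of the 8 fits with a library left out.

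Among further inhibitors of the TGF-beta superfamily, 3 had a higher response in shCTSL. Smad7, an inhibitory Smad of TGF-beta and BMP signals, stood at 122 and 132 CPM in shSC Day 0, 73.1 and 72.9 in shSC Day 4, 96.9 and 88.4 in shCTSL Day 0 and 93.5 and 93.0 in shCTSL Day 4. It fell in shSC (-0.80) and its change in shCTSL was 0.01, a line difference of 0.81 ± 0.11 (SE, adjusted p = 0.00699). Smad6, the inhibitory Smad of BMP signals, rose from 9.1 and 8.94 to 69.5 and 80.3 CPM in shSC and from 7.3 and 8.46 to 111 and 116 in shCTSL (line difference 0.81, adjusted p = 0.0377).

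Bambi, a decoy receptor for these ligands, rose from 10.1 and 10.9 to 57.6 and 74.7 CPM in shSC and from 9.52 and 9.95 to 116 and 114 in shCTSL (line difference 0.92, adjusted p = 0.0373). For Smad6 and Bambi shCTSL lay slightly below shSC at Day 0 and well above it at Day 4, with no overlap. These were 3 of 27 BMP and TGF-beta pathway genes tested (11.1%), with none called lower, and the list as a whole had a median of 0.0638. Of the 27 genes 14 were above 0, and values ran from -0.915 to 1.02. With exonic length offsets 3 were called higher and 1 lower, and the median was -0.0577. Leaving out shCTSL Day 0 replicate 1 or 2, shCTSL Day 4 replicate 2, shSC Day 0 replicate 1 or shSC Day 4 replicate 1 left 1 of the 3 calls, and leaving out shSC Day 0 replicate 2 left 0.

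**Figure D4:**
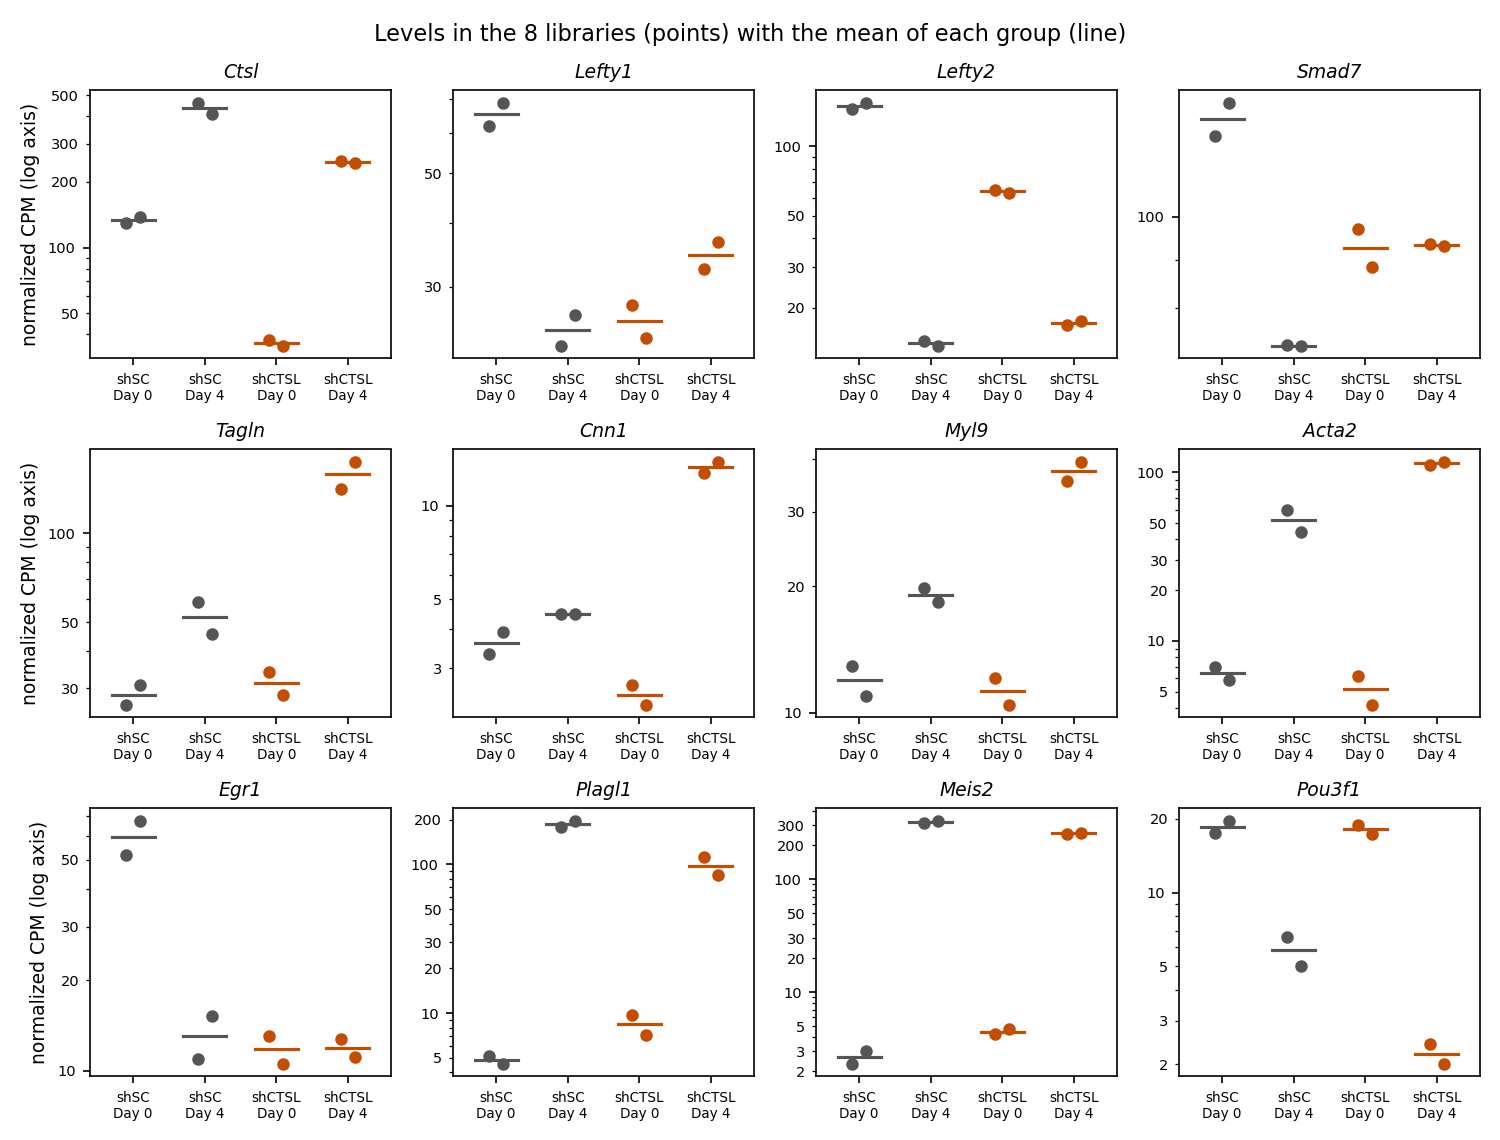
Normalized CPM (log axis, a separate scale in each panel) of 12 genes in the 8 libraries, shSC in grey and shCTSL in orange, with the mean of the 2 replicates as a line. Lefty1, Lefty2 and Egr1 differed between the lines at Day 0, and Tagln, Cnn1, Myl9 and Acta2 at Day 4, where all shCTSL libraries lay above all shSC libraries.

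Several genes of the smooth muscle contractile apparatus, actin and the proteins that bind actin and myosin, had a higher response in shCTSL. Of 20 tested, 5 were called higher and none lower (25%, against 0.988% called among all genes tested). The list was chosen with earlier results of these data known, so the 2 shares are not an independent comparison. The list's median line difference was 0.312, against 0.0118 over all genes, and 17 of the 20 were above 0. Tagln (transgelin, an actin-binding protein, chromosome 9, 45737711 to 45744141) stood at 26.4 and 30.8 CPM in shSC Day 0 and 34.1 and 28.6 in shCTSL Day 0, where the lines overlapped. At Day 4 it stood at 58.5 and 45.5 CPM in shSC and at 141 and 174 in shCTSL. It rose in both lines, by 0.87 and 2.32 on the log2 scale, with a line difference of 1.45 ± 0.20 (SE, adjusted p = 0.00699).

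Cnn1 (calponin 1, which regulates actomyosin, chromosome 9, 21903725 to 21914074) stood at 3.32 and 3.91 CPM in shSC Day 0, 4.48 and 4.5 in shSC Day 4, 2.65 and 2.29 in shCTSL Day 0 and 12.7 and 13.8 in shCTSL Day 4. It rose in shCTSL (2.41), while its change of 0.30 in shSC was not called, and the line difference was 2.11 ± 0.26 (SE, adjusted p = 0.00417). The shCTSL libraries were the lowest of the 8 at Day 0 and the highest at Day 4.

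Acta2, smooth muscle actin, rose from 7.01 and 5.9 to 59.6 and 43.9 CPM in shSC and from 6.22 and 4.18 to 111 and 115 in shCTSL (line difference 1.38, adjusted p = 0.0299). Myl9, a myosin light chain, rose from 12.9 and 11 to 19.8 and 18.3 CPM in shSC and from 12.1 and 10.5 to 35.5 and 39.5 in shCTSL (1.04, adjusted p = 0.0223). For both, the lines overlapped at Day 0 and did not at Day 4. The fifth called member, named after its values were seen, is Cnn2 (calponin 2), at 115 and 118 CPM in shSC Day 0, 108 and 102 in shSC Day 4, 117 and 107 in shCTSL Day 0 and 162 and 187 in shCTSL Day 4 (0.78, adjusted p = 0.0136).

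All 5 contractile genes remained called with exonic length offsets, with RLE scaling and by limma-voom, and 4 of them by DESeq2, which gave no adjusted p for Cnn1. Their count was 2 when shCTSL Day 0 replicate 2 or shSC Day 0 replicate 1 was left out, 3 when shCTSL Day 4 replicate 2 was, and 0 when shSC Day 0 replicate 2 was. The list's median stayed between 0.234 and 0.429 over the 8 fits.

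Promoters of the contractile genes are shown because 5 members of the list moved together, and because the CArG box, the sequence bound by serum response factor, is known from many of them. The capitals mark exact matches to the CArG box, which reads the same on both strands. Each sequence is the 250 bases before the start site as given by RefSeq on GRCm38.p6, 5′ to 3′ on the gene's strand. Tagln is not in the table used.
Myl9, chr2:156775214-156775463 (+ strand): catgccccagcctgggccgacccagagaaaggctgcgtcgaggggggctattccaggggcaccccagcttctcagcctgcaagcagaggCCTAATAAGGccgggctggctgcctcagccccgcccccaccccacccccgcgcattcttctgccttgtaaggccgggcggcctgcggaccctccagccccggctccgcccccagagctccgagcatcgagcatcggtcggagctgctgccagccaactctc
Cnn2, chr10:79988350-79988599 (+ strand): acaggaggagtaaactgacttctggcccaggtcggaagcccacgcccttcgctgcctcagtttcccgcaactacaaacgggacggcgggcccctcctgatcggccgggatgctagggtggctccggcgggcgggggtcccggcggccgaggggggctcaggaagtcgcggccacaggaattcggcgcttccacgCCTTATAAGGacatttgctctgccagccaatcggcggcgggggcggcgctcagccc
Cnn1, chr9:22099003-22099252 (+ strand): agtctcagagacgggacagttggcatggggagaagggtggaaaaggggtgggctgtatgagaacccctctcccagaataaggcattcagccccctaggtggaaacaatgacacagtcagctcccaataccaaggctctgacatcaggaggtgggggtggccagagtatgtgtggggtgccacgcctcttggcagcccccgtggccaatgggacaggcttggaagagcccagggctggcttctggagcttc
Acta2, chr19:34255374-34255623 (- strand): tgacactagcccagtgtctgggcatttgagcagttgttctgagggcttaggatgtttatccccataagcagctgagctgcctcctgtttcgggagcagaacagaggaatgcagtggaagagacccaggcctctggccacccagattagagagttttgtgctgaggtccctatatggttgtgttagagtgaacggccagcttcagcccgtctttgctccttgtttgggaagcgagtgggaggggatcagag
A match begins 161 bases before the start of Myl9 and 56 bases before that of Cnn2. No exact match lies in the window of Cnn1 or Acta2. Only exact matches were counted, so letters close to the box, such as ccctatatgg and ccttgtttgg in the Acta2 sequence, were not. The window searched runs from 250 bases before to 50 after the start. It holds a match in 1.63% of 32851 promoter sequences and for 1.54% of the 11463 genes tested that the table holds. Among the called genes it holds one for 5 of 81 higher genes (6.17%) and for 0 of 26 lower genes. Myl9 and Cnn2 are among these 5 and belong to the list whose calls prompted the search. The 6.17% is therefore not independent of the choice of this box. A match is a description of the sequence and shows neither binding nor a cause.

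Immediate early genes, which cells switch on within minutes of a growth signal, had 1 call among 18 tested (5.56%). Egr1, a zinc finger transcription factor of this class, stood at 52.0 and 67.4 CPM in shSC Day 0 but at 13 and 10.6 in shCTSL Day 0. At Day 4 it stood at 11 and 15.2 CPM in shSC and at 12.8 and 11.1 in shCTSL. The shSC Day 0 libraries were high and the other 6 overlapped. Egr1 fell in shSC (-2.22), its change in shCTSL was 0.00, and the line difference was 2.22 ± 0.25 (SE, adjusted p = 0.00117). The list had a median of 0.119, with 10 of 18 members above 0.

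Cathepsins and cystatins, the proteases of the Ctsl family and their inhibitors, had further calls beside Ctsl. Of 15 cathepsin and cystatin genes tested, 3 were called higher and none lower (20%), with a median of 0.51 and 13 members above 0. Besides Ctsl the called genes were Lgmn and Cst3. The share and the median include Ctsl, whose level the knockdown itself lowers, so its call says nothing about the rest of the list. Lgmn, the asparagine endopeptidase that processes cathepsins, rose from 35.7 and 39.2 to 114 and 102 CPM in shSC and from 35.1 and 33.0 to 151 and 149 in shCTSL (0.61, adjusted p = 0.0355). Cst3, cystatin C, a secreted inhibitor of cysteine cathepsins, rose from 62.4 and 58.5 to 115 and 122 CPM in shSC and from 54.5 and 48.6 to 145 and 167 in shCTSL (0.62, adjusted p = 0.0381). For both genes the shCTSL libraries lay below those of shSC at Day 0 and above them at Day 4. With exonic length offsets only Ctsl remained called, and the list's median was 0.368. Omitting shCTSL Day 0 replicate 2, shCTSL Day 4 replicate 2 or either shSC Day 0 replicate left 1 call, and omitting either shSC Day 4 replicate left 2. Among 40 other lysosomal genes none was called, with a median of 0.126 and values from -0.475 to 0.701. The highest of these was Cd63, a tetraspanin of late endosomes (adjusted p = 0.0946).

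Epithelial genes were 3 of the calls among 20 epithelial and mesenchymal genes (15%), all higher. Of the 20 genes 11 were above 0, with values from -4.6 to 1.08 and a median of 0.245. Cldn4 and Cldn6 code for claudins of tight junctions. Cldn4 went from 83.7 and 88.4 to 175 and 145 CPM in shSC and from 71.3 and 51.8 to 237 and 251 in shCTSL (1.08, adjusted p = 0.0145). Cldn6 went from 23.6 and 23.3 to 94.0 and 89.4 CPM in shSC and from 23.0 and 17.4 to 131 and 131 in shCTSL (0.71, adjusted p = 0.0389). For both claudins the lines did not overlap on either day, with shCTSL lower at Day 0 and higher at Day 4. Esrp1, a splicing regulator of epithelial cells, fell in both lines, from 37.6 and 42.1 to 8.91 and 8.18 CPM in shSC and from 23.7 and 22.3 to 9.48 and 9.35 in shCTSL (0.93, adjusted p = 0.0263). Of these 3 calls, 1 was left when shCTSL Day 0 replicate 2 was omitted, 0 when shCTSL Day 4 replicate 2 or either shSC Day 0 replicate was, and 2 when shSC Day 4 replicate 1 was. With exonic length offsets Cldn6 was not called (0.54, under the fold cutoff) and the list's median was 0.126.

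The pluripotency and lineage markers on which the response to retinoic acid is usually read were not called. Their line differences were -0.08 for Nanog (adjusted p = 0.705), 0.31 for Pou5f1 (0.293) and -0.40 for Sox2 (0.124), the core pluripotency factors. They were 0.20 for the neural progenitor filament gene Nes (0.435), -0.28 for the endoderm factor Gata6 (0.729) and -0.23 for the VEGF receptor gene Kdr (0.697). Nanog fell from 518 and 512 to 47.3 and 45.9 CPM in shSC and from 549 and 508 to 44.1 and 46.5 in shCTSL, so that the lines overlapped on both days. Sox2 stood at 82.3 and 73.3 CPM in shSC and at 50.4 and 57.5 in shCTSL at Day 4, without overlap. The SE of these 6 values was 0.10 to 0.40, and missing the threshold does not show that the lines responded alike.

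Among 26 naive pluripotency genes 1 was called (3.85%). Fbxo15, an early target of Oct4 and Sox2, fell from 212 and 226 to 21.8 and 18.5 CPM in shSC and from 186 and 175 to 24.0 and 29.6 in shCTSL (0.68, adjusted p = 0.0425). It kept its call in 1 of the 8 fits with a library left out. The list fell in both lines, with 24 of 26 genes called down in each.

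Of 13 formative pluripotency genes, those of the step between the naive state and gastrulation, 1 was called lower (7.69%). Pou3f1 (Oct6), a POU factor that also promotes neural fate, stood at 17.5 and 19.6 CPM in shSC Day 0 and 18.9 and 17.3 in shCTSL Day 0, and fell to 6.59 and 5.03 in shSC and to 2.41 and 2.0 in shCTSL. The lines overlapped at Day 0 and shCTSL was lower at Day 4, with a line difference of -1.39 ± 0.24 (SE, adjusted p = 0.0229).

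Among the other genes called lower, Plagl1 (Zac1), a paternally expressed imprinted zinc finger gene (chromosome 10, 12810497 to 12851500), rose from 5.13 and 4.55 to 179.9 and 197 CPM in shSC and from 9.73 and 7.17 to 112 and 84.8 in shCTSL. The shCTSL libraries were above shSC at Day 0 and below it at Day 4, and the line difference was -1.78 ± 0.25 (SE, adjusted p = 0.00763). Sox1, a marker of neural progenitors, rose from 13.8 and 14.5 to 40.9 and 44.2 CPM in shSC and from 21.2 and 17.7 to 32.0 and 31.2 in shCTSL (-0.90, adjusted p = 0.0223). Its order turned in the same way.

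Irx2, an Iroquois homeobox gene, rose from 6.29 and 5.67 to 40.6 and 35.7 CPM in shSC and from 9.87 and 7.27 to 22.7 and 22.7 in shCTSL (-1.30, adjusted p = 0.0145). Bhlhe22, a neuronal basic helix-loop-helix factor, rose from 0.434 and 0.934 to 16.1 and 18.5 CPM in shSC and from 1.65 and 1.59 to 10.5 and 10.6 in shCTSL (-1.89, adjusted p = 0.0393). Slc1a3, the glial glutamate transporter GLAST, rose from 23.3 and 21.8 to 132 and 97.2 CPM in shSC and from 25.8 and 29.6 to 65.1 and 56.6 in shCTSL (-1.21, adjusted p = 0.0145). In these 3 genes shCTSL was higher at Day 0 and lower at Day 4 with no overlap.

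These genes were named by the size of their values and form no list. Of 33 neural progenitor and neuron genes tested only Sox1 was called lower and 1 higher (6.06% in all), with a median of 0.0962. The higher gene is Stmn2, a tubulin-binding stathmin, which fell from 116 and 125 to 3.34 and 2.42 CPM in shSC and from 83.9 and 78.3 to 3.87 and 4.68 in shCTSL (1.10, adjusted p = 0.0263). The summed level of 4 neural markers was 218 to 231 CPM in shSC and 205 to 208 in shCTSL at Day 0, and 136 to 149 and 121 to 132 at Day 4. The part of cell composition in these genes was not tested.

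Retinoic acid targets responded in both lines, and 1 of 22 was called (4.55%). Meis2, a homeobox cofactor of Hox proteins, rose from 2.31 and 3.04 to 317 and 329.6 CPM in shSC and from 4.22 and 4.68 to 251 and 259 in shCTSL. The shCTSL libraries were higher at Day 0 and lower at Day 4, with a line difference of -1.05 ± 0.20 (SE, adjusted p = 0.0263). Of the 22 genes 19 rose in shSC, and the list's median line difference was -0.0581. None of the 35 Hox genes tested was called by edgeR (median -0.0399), although 33 rose in shSC. By limma-voom and with exonic length offsets 1 Hox gene was called.

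Primitive and visceral endoderm genes, 33 tested, held 1 call (3.03%). Trf, transferrin, an iron carrier that visceral endoderm secretes, stood at 13 and 13.1 CPM in shSC Day 0, 7.6 and 8.86 in shSC Day 4, 9.59 and 8.46 in shCTSL Day 0 and 11.3 and 14.7 in shCTSL Day 4 (1.20, adjusted p = 0.0263). It fell in shSC, its change of 0.52 in shCTSL was not called, and the order of the lines turned without overlap. The 6 defining endoderm markers summed to 382 to 399 CPM in shSC and 399 to 439 in shCTSL at Day 4.

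None of the lateral mesoderm and cardiac (20), endothelial and blood (22) or trophoblast genes (10) tested was called. Krt19, a keratin of simple epithelia and trophoblast, rose from 7.22 and 6.48 to 112 and 133 CPM in shSC and from 9.02 and 6.37 to 219 and 240.2 in shCTSL, with a line difference of 0.70 that was not called (adjusted p = 0.111). Of 48 collagen and matrix genes none was called either, with a median of 0.229 and 34 values above 0.

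**Figure D5:**
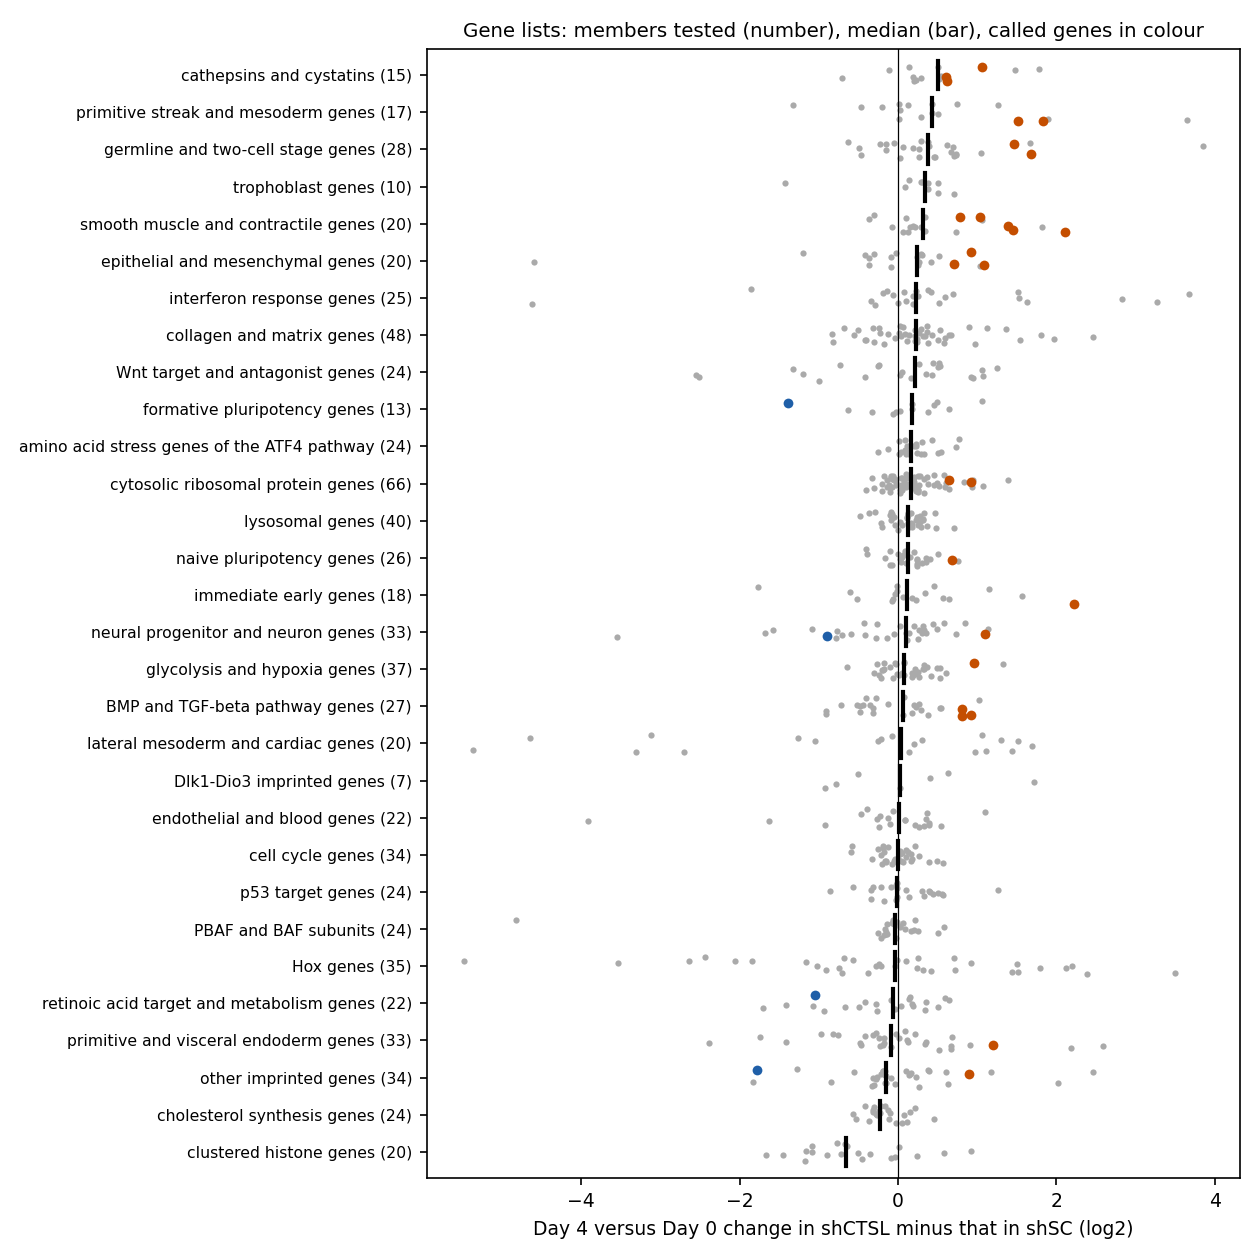
Line difference in response (log2) of each tested member of 30 gene lists, with the number tested in brackets, the list's median as a bar, and called genes in orange (higher in shCTSL) or blue (lower). The cathepsin list, which includes the knockdown target Ctsl, has the highest median (0.51) and the clustered histone list the lowest (-0.657), and the contractile list has the most calls (5).

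Ribosomal protein genes, whose transcripts are short, were affected by the length offsets. Of 66 tested 2 were called higher (3.03%), among them Rps2 (0.92, adjusted p = 0.0425), with a list median of 0.158 that was -0.0208 with exonic length offsets. Rps2 stood at 335 and 279 CPM in shSC Day 0, 80.9 and 93.8 in shSC Day 4, 169 and 231 in shCTSL Day 0 and 95.3 and 119.7 in shCTSL Day 4. The call of Rps2 was not made with RLE scaling, by DESeq2 (adjusted p = 0.118) or by limma-voom. Reads of these genes can be shared with their many processed pseudogenes, so that their values are uncertain.

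Of 20 clustered histone genes tested, whose main transcripts lack a poly(A) tail, none was called by edgeR, 4 were above 0 and the median was -0.657. With exonic length offsets the median was -0.835 and 1 was called lower. Hist1h2bc went from 12.6 and 12.6 to 7.56 and 6.71 CPM in shSC and from 17.1 and 19.5 to 6.49 and 6.11 in shCTSL (-0.72, adjusted p = 0.0914). All 4 Day 0 libraries lay above all 4 Day 4 libraries, with shCTSL above shSC at Day 0 and below it at Day 4. Selection of polyadenylated RNA measures a minor form of these transcripts.

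In metabolism and stress the calls were few. Pgk1, a glycolytic enzyme, fell from 33.1 and 38 to 13.5 and 12.9 CPM in shSC, and stood at 29.3 and 27.3 in shCTSL Day 0 and 18.2 and 22.8 in shCTSL Day 4 (0.96, adjusted p = 0.0263), the 1 call among 37 glycolysis and hypoxia genes (2.7%). None of the 24 target genes of ATF4, the factor of the amino acid stress response, was called. Of the 24, 22 were above 0 (median 0.165, against 0.0118 over all genes tested). This list's median was 0.124 to 0.209 over the fits with a library left out. None of the 24 cholesterol synthesis genes was called, and 6 of the 24 were above 0 (median -0.222, and -0.262 to -0.158 over the same fits). None of the interferon response (25), p53 target (24), cell cycle (34) and Wnt genes (24) and of the PBAF and BAF subunits (24) was called.

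Of 28 germline and two-cell stage genes tested, 2 were called higher and none lower (7.14%, median 0.383). Rpl10l, a testis paralog of the ribosomal protein gene Rpl10 (chromosome 12, 67384368 to 67385388), stood at 105 and 113 CPM in shSC Day 0, 31.7 and 29.9 in shSC Day 4, 35.6 and 31.5 in shCTSL Day 0 and 24.4 and 28.0 in shCTSL Day 4. The shSC Day 0 libraries stood far above the rest, and the line difference was 1.46 ± 0.14 (SE, adjusted p = 0.000276). Rpl10l has no introns and is close in sequence to Rpl10, so that its counts are uncertain. Fmr1nb, a testis gene beside Fmr1 on the X chromosome, stood at 11.7 and 12.4 CPM in shSC Day 0 and 10.5 and 10.8 in shSC Day 4, and went from 3.94 and 2.19 to 8.59 and 9.26 in shCTSL (1.67, adjusted p = 0.0145).

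Rhox9, a reproductive homeobox gene of the X chromosome, stood at 4.48 and 3.33 CPM in shSC Day 0, 5.57 and 5.37 in shSC Day 4, 1.07 and 1.19 in shCTSL Day 0 and 4.97 and 8.11 in shCTSL Day 4 (2.04, adjusted p = 0.0373). Phlda2, a maternally expressed imprinted gene that limits placental growth, fell from 63.7 and 62.1 to 6.25 and 6.04 CPM in shSC and from 57.6 and 46.5 to 8.48 and 10.5 in shCTSL (0.89, adjusted p = 0.0408). With Plagl1 it made up the 2 calls among 34 imprinted genes outside the Dlk1-Dio3 locus (5.88%). At Dlk1-Dio3 none of 7 genes was called. Rian, a maternally expressed noncoding RNA there, was low in shCTSL on both days, with a line difference of -0.92 that was not called (adjusted p = 0.183). It stood at 7.44 and 6.31 CPM in shSC Day 0, 6.38 and 5.77 in shSC Day 4, 1.93 and 2.39 in shCTSL Day 0 and 0.785 and 1.19 in shCTSL Day 4.

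Several other genes with large differences belong to no list. Lgals3, galectin 3, a lectin of endosomes and the cell surface (chromosome 14, 47987426 to 48005835), fell from 42.1 and 46.3 to 0.929 and 0.738 CPM in shSC and from 51.1 and 48.9 to 3.19 and 3.67 in shCTSL. The lines were close at Day 0 and apart at Day 4, and the line difference was 1.82 ± 0.25 (SE, adjusted p = 0.00699). Synpo, the actin-binding protein synaptopodin, rose from 2.89 and 3.15 to 30.3 and 33.8 CPM in shSC and from 1.5 and 0.995 to 40.6 and 39.8 in shCTSL (1.56, adjusted p = 0.0229).

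Low-level genes made up the rest of the highest values. Trim67, a TRIM-family gene, fell from 4.77 and 6.42 to 0.38 and 0.402 CPM in shSC and from 2.29 and 2.49 to 1.2 and 1.0 in shCTSL (2.72, adjusted p = 0.0195). Capn3, a calpain protease, fell from 4.99 and 5.37 to 0.718 and 1.07 CPM in shSC and from 2.93 and 2.99 to 1.52 and 1.91 in shCTSL (1.80, adjusted p = 0.0393). In both the lines changed order without overlap.

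Mmp23, a membrane-anchored metalloprotease, rose from 3.32 and 1.93 to 6.46 and 5.77 CPM in shSC and from 1.86 and 1.79 to 12.7 and 16.2 in shCTSL (1.72, adjusted p = 0.0408). Itpr2, a receptor for inositol trisphosphate that releases calcium, stood at 6.29 and 4.26 CPM in shSC Day 0, 7.77 and 6.51 in shSC Day 4, 3.79 and 3.29 in shCTSL Day 0 and 12.7 and 15.6 in shCTSL Day 4 (1.52, adjusted p = 0.0334). DESeq2 gave no adjusted p for Trim67, Capn3, Mmp23, Itpr2 and Rhox9, nor for the lower genes Pde10a, Bhlhe22 and Fndc3c1, and it did not call the lower genes St8sia1 (adjusted p = 0.0537) and Lars2 (adjusted p = 0.0818).

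Among the lowest values, Pde10a, a phosphodiesterase, rose from 0.434 and 0.292 to 6.46 and 6.17 CPM in shSC and from 1.57 and 0.896 to 3.82 and 3.48 in shCTSL (-2.62, adjusted p = 0.0263). Slco4a1, an organic anion transporter, stood at 12.9 and 12.2 CPM in shSC Day 0, 11.5 and 4.5 in shSC Day 4, 16.8 and 17.5 in shCTSL Day 0 and 2.72 and 2.39 in shCTSL Day 4 (-2.16, adjusted p = 0.0324). The shSC Day 4 replicates of Slco4a1 lay far apart, and without shSC Day 4 replicate 1 its value was -1.27 and not called.

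St8sia1, the GD3 ganglioside synthase, likewise had unequal shSC Day 4 replicates at 104 and 53.4 CPM, against 33.4 and 24.9 in shCTSL, from 17.8 and 19.7 in shSC and 20.2 and 24.2 in shCTSL at Day 0 (-1.68, adjusted p = 0.0393). Without shSC Day 4 replicate 1 its value was -1.12. Fndc3c1, a fibronectin type III domain gene of the X chromosome, rose in shSC from 4.33 and 3.68 to 14.1 and 16.2 CPM and stood at 4.51 and 3.78 and at 6.81 and 5.87 in shCTSL (-1.32, adjusted p = 0.0333). Itga8, the integrin alpha 8 chain, rose from 3.69 and 2.86 to 20.5 and 19.99 CPM in shSC and from 5.15 and 7.27 to 17.3 and 15.8 in shCTSL (-1.20, adjusted p = 0.0393).

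Ribosomal RNA counts also differed. Rn45s, the 45S ribosomal RNA precursor, stood at 2430.2 and 3308 CPM in shSC Day 0, 13260.2 and 9536 in shSC Day 4, 2371 and 4793 in shCTSL Day 0 and 3314 and 1986 in shCTSL Day 4, between 0.212 and 1.43% of a library's counts. Its line difference was -2.42 ± 0.40 (SE, adjusted p = 0.0164). Lars2, the mitochondrial leucyl-tRNA synthetase, was read at 116 and 172, 866 and 624, 123 and 309, and 277 and 162 CPM in the same order, with a line difference of -2.34 (adjusted p = 0.0355). In each group the replicate with more Rn45s had more Lars2. In poly(A)-selected RNA the level of Rn45s depends on how fully the ribosomal RNA was removed, and the part of that removal in both values was not tested.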

How the data were processed

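Poly(A) RNA-seq read counts of 8 of the 12 libraries were used. Per the labels and the methods of the study, the authors made directional libraries. Their reads were aligned to mm9 (STAR 2.3.0e), filtered with SAMtools 0.1.19 for a mapping quality of at least 10 and against mitochondrial sequence, and assigned to RefSeq genes as counts by featureCounts 1.6.2. The deposited counts are whole numbers without normalization. How the counting treated strand is not given in the sources read, so reads of overlapping antisense genes may be shared.

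Counts were fitted in R 4.3.3 with the quasi-likelihood test of edgeR 4.0.16 after TMM normalization (factors 0.886 to 1.15), with a mean per group, 4 residual degrees of freedom and genes kept by filterByExpr at a minimum count of 10. All p-values were adjusted over the 15079 genes by the Benjamini-Hochberg method. The study used DESeq2 1.16.1. DESeq2 1.42.0 and limma-voom (limma 3.58.1, quality weights) were alternatives, together with RLE scaling, other count filters and fold cutoffs, all 12 libraries, a replicate block and each library left out. Exonic length offsets and a crossed block were added after the data were seen. In each group the replicates differed by 2.73 to 8.70 times the counting error (chi-square per degree of freedom).

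The genes, lists and tests were chosen with earlier results of these data known. Named genes are Ctsl, 6 markers, the 12 highest and 12 lowest called genes with a mean of at least 5 CPM in a group and no overlap between the lines' differences, without predicted loci and small RNAs, and the called members of each list, at most 4 in each direction. The result of 1 called gene is not reported here. Where a list has no call, at most 2 members are given, without genes at 0 in both libraries of a group.

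Same-numbered replicates correlated from -0.306 to 0.269 between groups (deviations from group means). Correlations with shCTSL Day 0 were negative (-0.179, -0.178 and -0.306), and those among the other groups were positive (0.0896, 0.13 and 0.269). Whether the samples are paired cannot be told from these values, and the main fit had no replicate term. On simulated data for this comparison (15079 genes) the test found 12, 26, 43 and 39 of 50 genes changed 1.5-, 2-, 4- and 8-fold and called 10 of 14741 unchanged genes. The simulated counts held no shift of a whole library and no trend with gene length. False calls in the data could therefore be more frequent than in the simulation. Positions and exonic lengths are from GENCODE M1 on mm9, which held 20561 of 24495 genes by symbol and 1708 by another name. Promoters are from RefSeq (GRCm38.p6) and were not placed on mm9. Figures were drawn with matplotlib 3.10.9 in Python 3.11.15.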

Additional observations from a re-analysis of the deposited data

Results flagged for a closer look

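These values are the named genes whose Day 4 minus Day 0 change differed between shCTSL and shSC by the test of that difference itself (log2, edgeR, adjusted p under 0.05 and at least 1.5-fold). Those that kept their call in at least 7 of the 8 fits with a library left out were 2.22 for Egr1, 2.11 for Cnn1, 1.83 for Lefty1, 1.82 for Lgals3, 1.52 for Lefty2, 1.46 for Rpl10l, 1.45 for Tagln, 1.06 for Ctsl, 0.81 for Smad7 and -1.78 for Plagl1. Higher in shCTSL, with the call kept in 4 to 6 of these fits, were 2.72 for Trim67, 1.67 for Fmr1nb, 1.56 for Synpo, 1.38 for Acta2, 1.1 for Stmn2, 1.08 for Cldn4, 1.04 for Myl9 and 0.93 for Esrp1. Lower in shCTSL, with the call kept in 4 to 6 fits, were -2.42 for Rn45s, -1.68 for St8sia1, -1.3 for Irx2, -1.21 for Slc1a3, -1.05 for Meis2 and -0.9 for Sox1. The call was kept in 1 to 3 fits for the higher values 2.04 for Rhox9, 1.8 for Capn3, 1.72 for Mmp23, 1.52 for Itpr2, 1.2 for Trf, 0.96 for Pgk1, 0.92 for Rps2, 0.92 for Bambi, 0.89 for Phlda2, 0.81 for Smad6, 0.71 for Cldn6, 0.68 for Fbxo15, 0.62 for Cst3 and 0.61 for Lgmn, and for the lower values -2.62 for Pde10a, -2.34 for Lars2, -2.16 for Slco4a1, -1.89 for Bhlhe22, -1.39 for Pou3f1, -1.32 for Fndc3c1 and -1.2 for Itga8. No group had the 4 or more libraries that a test for a single outlying library needs.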

How the results depend on the processing

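The count of 149 line differences in response was 133 with RLE scaling, 128 by limma-voom, 178 by DESeq2 and 149 with a minimum of 1 CPM in 2 libraries. It was 499 with no filter on low counts (305 higher and 194 lower), 1 with all 12 libraries fitted, 24 at a log2 difference of at least 1.5, and 8 to 498 with a library left out. With the replicate number as a block it was 177, of which 147 were among the 149, and the block changed no other count by over 1.5 times (9585 genes in shSC and 9448 in shCTSL). With the numbers of the shCTSL Day 0 replicates crossed, chosen after seeing the data because their correlations with the other groups were negative, the block gave 525 calls. Exonic length offsets gave 213. The within-line counts were 9306 to 9772 (shSC) and 9069 to 9628 (shCTSL) with a library left out, and 4678 and 4614 at a log2 change of at least 1.5. Of the 149 genes, 127 remained called with RLE scaling, 113 by DESeq2 (which gave no adjusted p for 20), 115 by limma-voom and 73 under these 3 and the length offsets together. The length offsets could be applied to only 32 of the 36 lower genes, as the rest had no length. The line difference of Gata6, not called at -0.28, ran from -0.53 to 0.13 with a library left out and was 0.13 without shCTSL Day 0 replicate 1, and no other named gene changed sign. The cause of these shifts was not tested. With 2 libraries per group each SD is imprecise. Many 1.5-fold differences would be missed by this call, since the simulation found 12 of 50. The call itself asks for at least 1.5-fold, so that count does not measure a limit of depth alone. Of 50 genes changed 2-fold the simulation found 26.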

Other observations

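Further list members gave line differences in response that did not pass the adjusted p. Ddit4l, a stress-induced inhibitor of mTOR signalling, stood at 6.07 and 7.42 CPM in shSC Day 0, 13.6 and 12.3 in shCTSL Day 0, 43.4 and 27.5 in shSC Day 4 and 38.8 and 37.1 in shCTSL Day 4 (-0.86, adjusted p = 0.124). The lines differed at Day 0 and overlapped at Day 4. Rb1, the retinoblastoma gene of cell cycle control, had -0.60 (adjusted p = 0.0968), Hsd17b7, an enzyme of cholesterol synthesis, -0.57 (0.138), Chac1, a glutathione-degrading enzyme induced by ATF4, 0.77 (0.169), and Bcl7c, a subunit of BAF complexes, 0.58 (0.137).

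The Day 2 libraries were not part of the comparison, and the shCTSL Day 2 replicates stood apart from each other, after scaling over all 12 libraries, with Rn45s at 32520 and 4994 CPM against 1530 and 6603 in shSC. At Day 2 Lefty1 stood at 202.9 and 208.3 CPM in shSC and at 404.8 and 214.5 in shCTSL, and Lefty2 at 179.5 and 180.6 in shSC and 198.2 and 164.5 in shCTSL. For Lefty1 the lines did not overlap and for Lefty2 they did. Tagln stood at 26.3 and 23.5 CPM in shSC and at 73.8 and 39.8 in shCTSL at Day 2, and Myl9 at 16.3 and 14.4 and at 36.1 and 20.7. Cnn1 stood at 4.68 and 4.64 in shSC and at 11.1 and 4.51 in shCTSL, where the lines overlapped. Plagl1 stood at 23.8 and 25.7 CPM in shSC and at 18.4 and 21.9 in shCTSL at Day 2.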
